A study of Mus musculus with 27 samples.

Results

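Retinoid visual cycle genes were followed across sorted retinal cells, as a group of 9 genes among the 19301 genes measured. The 9 genes were chosen by name, with earlier results of these data known: Rbp3, Abca4, Rdh8, Rdh12, Rdh11, Rdh5, Dhrs3, Rpe65 and Lrat. Each had 1 probe set, the array's bundle of probes for a gene, that listed it alone. Another probe set, shared between Rdh11 and Pwwp3a, was left out. The study hybridised RNA of sorted cells from adult mouse retina to 27 arrays, in 9 groups of 3 biological replicates. Its title asks how expression values follow the amount of RNA of a cell group. Sample titles give 200 cells for each of the 24 cone, starburst and mixture arrays, and no cell number for the Arc arrays.

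Cones were sorted by GFP from the line Tg(Chrnb4-EGFP)1Gsat, in which the reporter follows the gene of a nicotinic receptor subunit. Arc amacrine cells were sorted by GFP from Tg(Arc-EGFP)194Gsat/Mmcd. Starburst cells, the cholinergic amacrine neurons, were sorted by RFP from ChAT-Cre mice, labelled 129S6-Chat_tm1(cre)Lowl/J, crossed to Rosa26-LSL-RFP. The pure cone arrays held 200 cones, the pure starburst arrays 200 starburst cells. The mixtures held 50, 75, 100, 150, 157 or 183 cones, filled up to 200 cells with starburst cells. Retinas were pooled before sorting, and the series' design describes 3 rounds from different mice for the 5 titration groups of 0, 50, 100, 150 and 200 cones. All groups carry the same labelled background, a mix of C57BL/6J with FVB/N-Swiss Webster hybrid. The protocol adds that the hybrids brought a recessive allele for degeneration of photoreceptors and were crossed back to C57BL/6J, while the other lines had long been kept on C57BL/6J. The Arc arrays are described as a batch control. Cones, starburst cells and Arc cells came from different lines, so cell type and line cannot be told apart. No age beyond adult is used here.

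When an opsin catches light, its bound retinal changes from the cis to the trans form and must be replaced. The photoreceptor moves the spent retinal out of its disc membranes and reduces it to retinol. The pigment epithelium turns retinol into esters, isomerises them and returns fresh cis retinal, and Muller glia are thought to serve cones through a second route. Abca4 is the transporter of the disc membrane, Rdh8 and Rdh12 are photoreceptor retinol dehydrogenases, and Dhrs3 is a retinal reductase described in cones. Rbp3 is the retinoid carrier that photoreceptors secrete into the matrix around them. Lrat, Rpe65 and Rdh5 make esters, isomerise them and oxidise the product in the pigment epithelium, and Rdh11 is a broadly expressed retinol dehydrogenase.

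The sorted cells were first checked against marker genes. The summed level of 10 cone markers on the linear scale lay between 5186 and 12830 on the pure cone arrays, and between 103 and 297 on the pure starburst arrays. The 7 starburst markers summed to 55.4 to 97.0 on pure cone arrays, against 2533 to 2756 on pure starburst arrays. Rod markers had signal throughout. The 11 measured rod genes summed to 4762 to 7475 on pure cone arrays, 658 to 945 on Arc arrays and 1237 to 2244 on pure starburst arrays. On pure cone arrays the largest parts of that sum came from Sag and Rom1, with log2 means of 11.01 and 10.49. The third arrays of the 4 groups with at least 150 cones stood apart in cone and rod markers. The share of all tested genes that lay apart on these arrays was not counted. There all 10 cone markers lay below both other arrays in all 4 groups. Of the 11 rod markers, 7 lay above both in all 4 groups, among them the transducin subunit Gnat1, by 0.87 to 2.21 on the log2 scale, while Sag lay below both in all 4. The rod sum was higher on the third array with 150, 183 and 200 cones and lower with 157, at 2999.7 against 3323 and 3089.7. Outside these groups, the third array with 75 cones also had a low cone sum, 664 against 3112 and 2955. Called members are therefore also given without the third arrays of all groups. The 6 measured bipolar cell markers were low, with sums of 82.1 to 167 on pure cone arrays, 38.5 to 45.6 on Arc arrays and 38.0 to 87.4 on pure starburst arrays. RNA of many cells was measured together, so fewer cells of a type and less RNA per cell cannot be told apart.

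**Figure D1:**
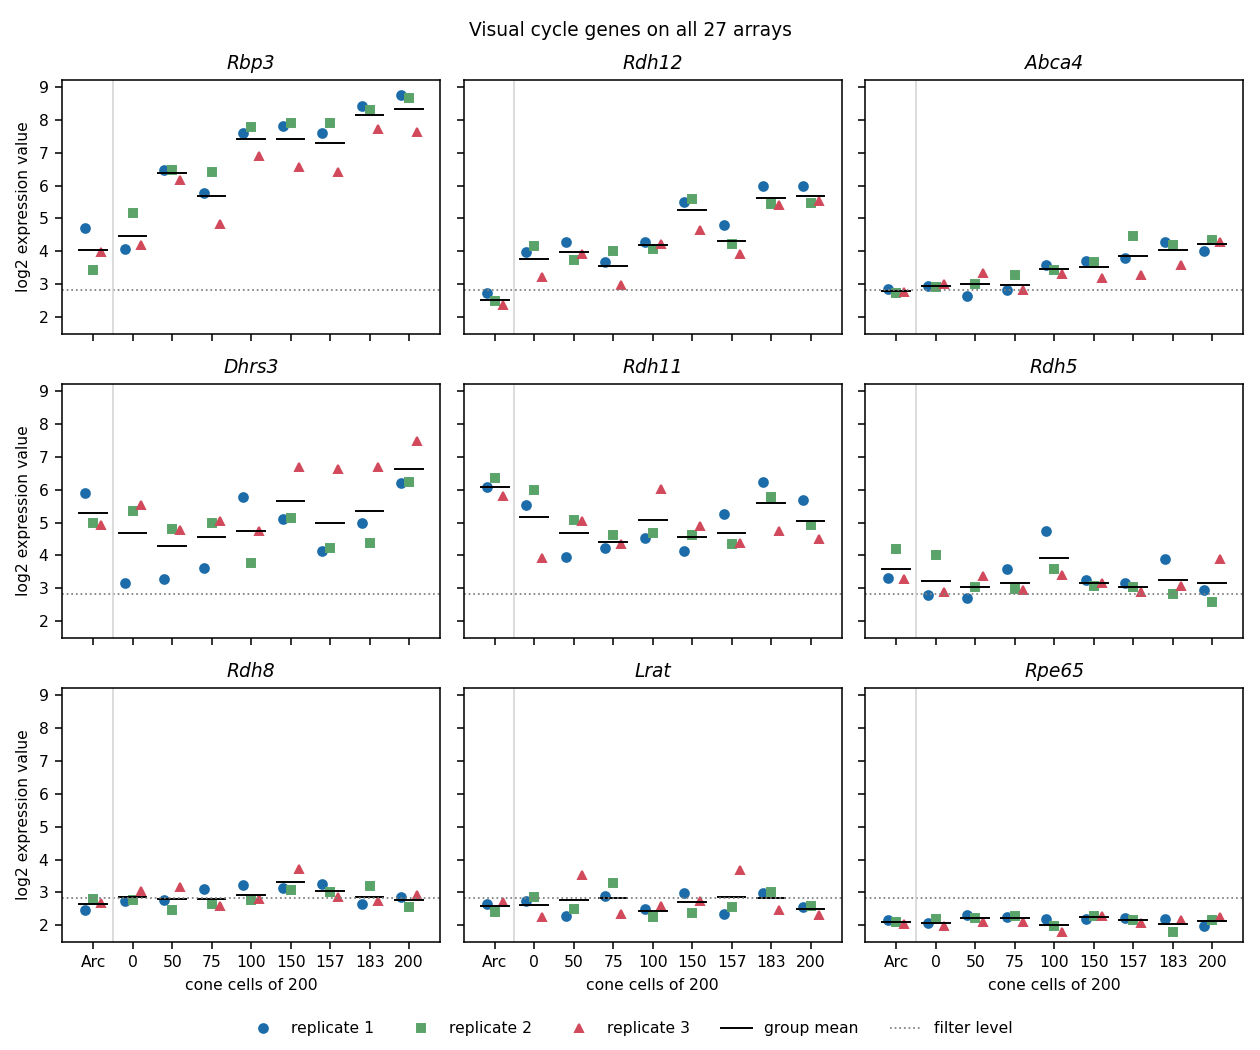
Log2 expression values of the 9 visual cycle genes on all 27 arrays, with Arc cells at the left and then the groups by number of cones among 200 cells. Points are arrays by replicate number, bars are group means, and the dotted line is the filter level of 2.83. Rbp3, Rdh12 and Abca4 are highest toward 200 cones, while Rpe65 lies under the line on all arrays.

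Values below are log2 expression values as deposited, which do not allow the level of one gene to be set against that of another. A gene was tested if it exceeded the median of all values, 2.83, on at least 3 arrays. This held for 8 of the 9 members and for 12441 genes. A gene was called different when the adjusted p of limma, a linear model fitted over all 27 arrays, was under 0.05 and the log2 fold change was at least 1 in either direction. Fold changes carry the standard error (SE) of that fit, with n = 3 arrays per group.

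The question of the first comparison was which steps of the cycle set cones apart from starburst cells. In pure cones 3 of the 8 tested members were called, all higher: the carrier Rbp3, the dehydrogenase Rdh12 and the transporter Abca4. Of all tested genes 8.42% were called in this comparison. Of 11 rod markers 3 were called higher in pure cones, Sag, Rom1 and Gngt1. Gnat1, Pde6a, Pde6b and Cnga1 were among those not called (limma adjusted p = 0.190, 0.219, 0.163 and 0.587). Of 4 tested bipolar markers 1 was called higher, Cabp5, by 2.56 (limma adjusted p = 4.87e-05). The part of rod or bipolar RNA in the members' differences was not tested. The median log2 fold change was 0.59 over the 8 members and -0.04 over all tested genes.

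Rbp3, retinol binding protein of the photoreceptor matrix, had values of 8.74, 8.66 and 7.62 in pure cones, against 4.08, 5.18 and 4.19 in pure starburst cells. Every cone array stood above every starburst array, and the lowest of the cone values was the third. The log2 fold change was 3.86 ± 0.47 (limma adjusted p = 4.27e-06), and 4.07 (adjusted p = 2.69e-05) without the third arrays. Rdh12, which reduces retinal in the photoreceptor's inner segment, had 6.00, 5.46 and 5.55 in pure cones, against 3.97, 4.16 and 3.21 in pure starburst cells. The groups did not overlap. Rdh12 was higher in cones by 1.89 ± 0.30 (limma adjusted p = 1.04e-04), and by 1.66 (adjusted p = 0.00178) without the third arrays. Abca4, the disc transporter, had 4.02, 4.34 and 4.27 in pure cones, against 2.95, 2.91 and 3.02 in pure starburst cells. Its starburst values were hardly above the filter level, so that the size of the fold depends on the background of the array. The log2 fold change was 1.25 ± 0.24 (limma adjusted p = 8.67e-04), and 1.25 (adjusted p = 0.00371) without the third arrays.

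The stretches just before the starts of these 3 genes are shown because they are the members called in cones. Each holds the 250 bases upstream of a start given in the RefSeq promoter table on GRCm38.p6, read 5′ to 3′ on the gene's strand, which is the plus strand for all 3. For Rbp3 and Rdh12 that start is the first base of the annotated gene. For Abca4 it lies 569 bases downstream of the gene's first base, so the stretch is inside the annotated gene, and distances below are from the start in the table. Capitals mark the motifs searched on both strands. The first is TAATCC, the core of sites of the photoreceptor factors Crx and Otx, which reads GGATTA on the opposite strand. The next is a variant of that core, TAAGCC, which reads GGCTTA there. The last is TGCTGA, part of the sites of the rod factor Nrl, which reads TCAGCA there. No motif found in these stretches overlapped another.
Rbp3 (chr14:33953753-33954002): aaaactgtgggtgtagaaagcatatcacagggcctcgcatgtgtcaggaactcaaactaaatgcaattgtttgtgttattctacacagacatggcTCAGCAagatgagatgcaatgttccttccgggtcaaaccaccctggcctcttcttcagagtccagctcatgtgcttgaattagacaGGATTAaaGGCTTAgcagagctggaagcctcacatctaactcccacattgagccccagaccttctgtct
Rdh12 (chr12:79208663-79208912): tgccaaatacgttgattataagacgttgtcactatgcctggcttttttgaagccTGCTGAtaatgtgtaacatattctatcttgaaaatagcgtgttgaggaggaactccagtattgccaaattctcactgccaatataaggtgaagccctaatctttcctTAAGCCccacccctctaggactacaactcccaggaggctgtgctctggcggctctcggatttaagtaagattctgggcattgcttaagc
Abca4 (chr3:122044210-122044459): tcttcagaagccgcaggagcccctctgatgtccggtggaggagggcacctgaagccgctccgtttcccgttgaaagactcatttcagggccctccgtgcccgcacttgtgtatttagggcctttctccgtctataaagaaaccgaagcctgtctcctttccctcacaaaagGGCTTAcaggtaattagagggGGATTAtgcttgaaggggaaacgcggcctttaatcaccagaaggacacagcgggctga

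In Rbp3, TAATCC lay on the opposite strand 69 to 64 bases before the start and TAAGCC 61 to 56 bases before it, with TGCTGA farther off at 155 to 150. In Abca4, TAATCC lay 58 to 53 and TAAGCC 79 to 74 bases before the start, both on the opposite strand. In Rdh12, TAAGCC lay on the gene's own strand 89 to 84 bases before the start and TGCTGA 196 to 191 bases before it. Among the 12 stretches that the table gives for the 9 members, TAATCC was found in 3, TAAGCC in 4 and TGCTGA in 2. The other holders were Rpe65, with TAATCC, and Rdh8, with TAAGCC, which were not called in cones. Of all 32851 stretches of this length, 6.25% held TAATCC, 8.20% TAAGCC and 16.1% TGCTGA. A match describes the letters and is no measure of binding. Rdh12 lies 17057 bases from Rdh11 on chromosome 12, and the 2 genes are read in opposite directions.

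The retinal reductase Dhrs3 had 6.22, 6.22 and 7.46 in pure cones, against 3.16, 5.36 and 5.53 in pure starburst cells. The groups did not overlap, but the first starburst array lay far under the others. The log2 fold change of 1.95 ± 0.76 was not called (limma adjusted p = 0.0959), and it was called with the replicate number as a block (adjusted p = 0.0440). The spread of Dhrs3 within groups, a residual SD of 1.01 on the log2 scale against a median of 0.28 over tested genes, was higher than that of 99.4% of them.

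Rdh8, the outer segment dehydrogenase that reduces the retinal released from opsin, had 2.87, 2.55 and 2.93 in pure cones, against 2.73, 2.77 and 3.04 in pure starburst cells. Both groups lay around the filter level and overlapped, and the difference was -0.07 ± 0.21 (limma adjusted p = 0.891). Rdh11 had 5.69, 4.93 and 4.49 in pure cones, against 5.54, 6.00 and 3.93 in pure starburst cells, well above the filter level on all of them. Its difference was -0.12 ± 0.49 (limma adjusted p = 0.916).

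The members of the pigment epithelium's part of the cycle showed no called difference. Rdh5, which oxidises cis retinol, had 2.96, 2.60 and 3.89 in pure cones, against 2.80, 4.0 and 2.88 in pure starburst cells (difference -0.08 ± 0.38, limma adjusted p = 0.928). A single array of each group stood out, the third of the cones and the second of the starburst cells. Lrat, which makes retinyl esters, had 2.56, 2.59 and 2.32 in pure cones, against 2.74, 2.85 and 2.25 in pure starburst cells, and differed by -0.13 ± 0.32 (limma adjusted p = 0.857). Rpe65, the isomerase, lay between 1.80 and 2.31 over all 27 arrays and was not tested. Of 13 measured pigment epithelium markers that are no members, 7 never exceeded the filter level on any array, among them Best1, Ttr and Rgr, and limma called 0 of the 6 tested in this comparison (0 at an unadjusted p under 0.05). Their summed linear level ranged over 96.5 to 118 in pure cones and 96.4 to 189 in pure starburst cells. The list holds Rlbp1, which was also counted as a Muller glia marker. The sum of 189 was that of the second starburst array, where Rlbp1 had 6.75, against 3.65 on the first and 4.14 on the third.

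**Figure D2:**
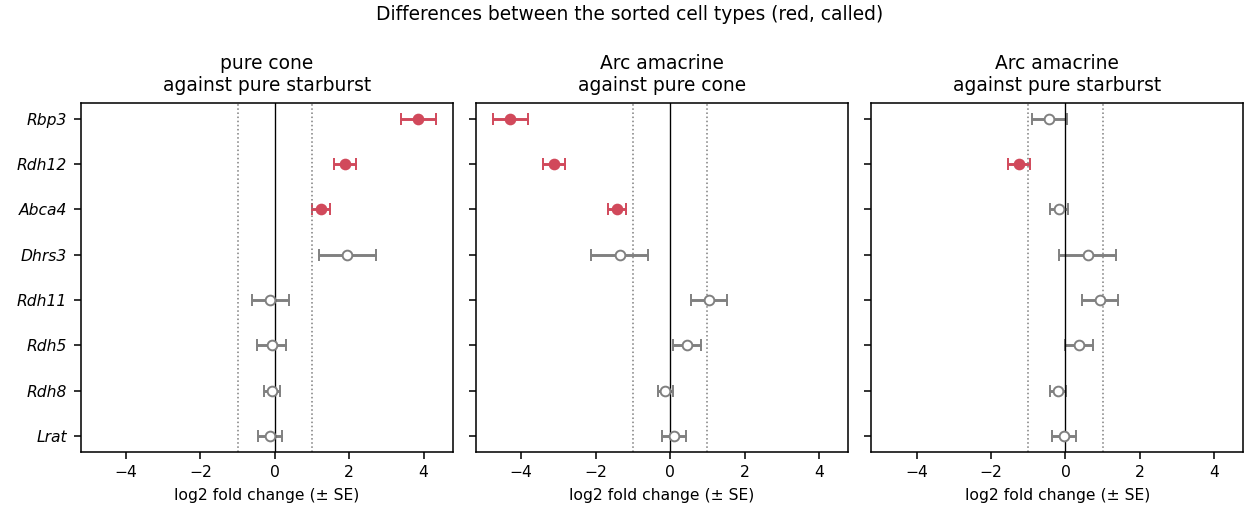
Log2 fold changes with their SE for the 8 tested visual cycle genes, in pure cones against pure starburst cells, Arc cells against pure cones and Arc cells against pure starburst cells. Filled red points were called and open grey points were not, and dotted lines stand at 1 and -1. Rbp3, Rdh12 and Abca4 differ in both comparisons with cones, and Rdh12 alone between the amacrine groups.

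Arc cells, another amacrine group, were set against pure cones next. The same 3 members were called, all lower in Arc cells, where 10.3% of all tested genes were called. This comparison and the first share the pure cone arrays. Of the rod markers 5 of 11 were called lower in Arc cells, and of the bipolar markers 2 of 4, Cabp5 and Pcp2. Their part in the members' differences was not tested. Rbp3 had 4.72, 3.43 and 3.99 in Arc cells and was lower than in cones by a log2 fold change of -4.29 ± 0.47 (limma adjusted p = 7.72e-07). Rdh12 had 2.75, 2.50 and 2.37 in Arc cells, all under the filter level, with a fold change of -3.13 ± 0.30 (1.09e-07). Abca4 had 2.86, 2.73 and 2.78 in Arc cells, with -1.42 ± 0.24 (1.79e-04). Rdh12 and Abca4 lay around or under the filter level in Arc cells, so both folds depend on the background of the array. Without the third arrays the folds were -4.62 for Rbp3, -3.11 for Rdh12 and -1.38 for Abca4, and all 3 were called. Rdh11 had 6.09, 6.34 and 5.81 in Arc cells, each above the highest cone value of 5.69. Its difference of 1.04 ± 0.49 was not called (limma adjusted p = 0.155). Dhrs3 had 5.91, 4.99 and 4.94 in Arc cells and differed from cones by -1.36 ± 0.76 (limma adjusted p = 0.248).

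Between Arc cells and pure starburst cells 1 of the 8 tested members was called, against 3.55% of all tested genes. It was Rdh12, lower in Arc cells by a log2 fold change of -1.24 ± 0.30 (limma adjusted p = 0.0115), with groups that did not overlap. The summed rod level was 658 to 945 in Arc cells, against 1237 to 2244 in starburst cells. Limma called 2 of 11 rod genes lower (4 at an unadjusted p under 0.05). Of the 10 cone markers limma called 0 (1 at an unadjusted p under 0.05, Opn1mw, with -1.59 ± 0.59). The part of rod RNA in the Rdh12 difference was not tested. The call was lost without pure starburst replicate 1 (adjusted p = 0.0588) or 2 (0.0803) and without Arc replicate 3 (0.0537). Without the third arrays of all groups it was kept, at -1.44 (0.00975). Rbp3 differed by -0.44 ± 0.47 (adjusted p = 0.763) and Abca4 by -0.17 ± 0.24 (0.841).

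The titration then asked how the members follow the number of cones. Over its 5 groups, 4 of the 8 tested members had a called change from 0 to 200 cones, all upward, while 8.20% of all tested genes were called. The fitted log2 change over the whole range was 3.51 ± 0.46 for Rbp3 (limma adjusted p = 1.33e-04), 2.02 ± 0.28 for Rdh12 (1.87e-04), 1.21 ± 0.18 for Abca4 (3.77e-04) and 2.10 ± 0.63 for Dhrs3 (0.0318). These fits hold the pure arrays of the first comparison. The first 3 kept their calls without the third arrays, at 3.81, 1.94 and 1.35. Dhrs3 did not, with 2.0 and an adjusted p of 0.0964, and its call was also lost without pure starburst replicate 1 (0.0980) or pure cone replicate 1 (0.0596), 2 (0.0626) or 3 (0.102). Rdh8 (0.15 ± 0.22), Rdh11 (-0.15 ± 0.46), Rdh5 (-0.02 ± 0.39) and Lrat (-0.13 ± 0.24) were not called.

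Rbp3 was the member called with the fewest cones, at 100. It had 6.47, 6.48 and 6.16 with 50 cones, above all starburst arrays, but the log2 fold change of 1.89 ± 0.47 over pure starburst was not called (limma adjusted p = 0.206). With the replicate number as a block it was called (adjusted p = 0.0105). Of all tested genes, 0.0482% were called at 50 cones and 0.0482% at 75 cones, and 0 of the 8 tested members in either mixture. By limma's unadjusted p, 1 member was under 0.05 in each, which was Rbp3. With 75 cones Rbp3 had 5.77, 6.42 and 4.82, a lower mean than with 50. The summed cone marker level was also lower there, 664 to 3112 with 75 cones, against 3875 to 4808 with 50. The 664 was that of the third array, and the first and second had 3112 and 2955.

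From 100 cones on Rbp3 was called in every mixture. It had 7.60, 7.79 and 6.90 with 100 cones, where it was the 1 member called (fold change 2.94 ± 0.47 over pure starburst, limma adjusted p = 0.00223) and 0.418% of all genes were called. With 150 cones it had 7.81, 7.90 and 6.57, with 157 cones 7.61, 7.90 and 6.41, and with 183 cones 8.43, 8.30 and 7.72. The fold changes over pure starburst were 2.95 ± 0.47, 2.82 ± 0.47 and 3.66 ± 0.47. Without the third arrays Rbp3 was called in all 4 groups, at 3.06 with 100 cones, 3.23 with 150, 3.12 with 157 and 3.73 with 183. In each of these groups the third array was the lowest.

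Rdh12 was called with 150 and with 183 cones and not with 157. It had 5.51, 5.61 and 4.65 with 150 cones, a fold change of 1.47 ± 0.30 over pure starburst (limma adjusted p = 0.00875), where 2 members and 1.74% of all genes were called. With 157 cones it had 4.79, 4.23 and 3.94 and the fold change of 0.54 ± 0.30 was not called (limma adjusted p = 0.298), while 1 member and 4.08% of genes were called. With 183 cones it had 5.99, 5.44 and 5.42 and a fold change of 1.84 ± 0.30 (limma adjusted p = 4.66e-04), where 3 members and 4.90% of genes were called. Its values with 150 and 157 cones overlapped, and their difference was not tested. The call with 150 cones was lost without replicate 1 of that group (0.0556) or replicate 3 of the pure starburst group (0.0585). Without the third arrays of all groups Rdh12 was called with 150 cones at 1.49 (limma adjusted p = 0.0139) and with 183 at 1.65 (0.00316).

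Below 150 cones Rdh12 stayed near its starburst values. It had 4.29, 3.75 and 3.91 with 50 cones, 3.66, 4.0 and 2.98 with 75, and 4.28, 4.08 and 4.21 with 100. Abca4 was not called with up to 150 cones. Its values were 2.65, 3.01 and 3.35 with 50 cones, 2.82, 3.27 and 2.82 with 75, 3.59, 3.44 and 3.32 with 100, and 3.72, 3.67 and 3.21 with 150. It had 3.81, 4.45 and 3.29 with 157 cones, a fold change of 0.89 ± 0.24 that fell short of the fold limit (limma adjusted p = 0.0255), and 1.20 and called without the third arrays. With 183 cones it had 4.30, 4.19 and 3.59 and was called at 1.07 ± 0.24 (limma adjusted p = 0.00711). That fold was 0.93 without replicate 1 and 0.99 without replicate 2 of this group, under the fold limit, and 1.32 (limma adjusted p = 0.00439) without the third arrays of all groups. Of 11 rod markers 3 were called higher with 150 cones, 2 with 157 and 3 with 183, and the bipolar marker Cabp5 in all 3 mixtures. The part of rod or bipolar RNA in the members' differences was not tested.

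Dhrs3 was called by limma in 0 of the 6 mixtures against pure starburst cells, and in 0 of them at an unadjusted p under 0.05. Its values with 50 cones were 3.29, 4.80 and 4.78, and with 75 cones 3.61, 4.98 and 5.06, so that the first array was the lowest in both groups as in the pure starburst cells. With 100 cones it had 5.77, 3.76 and 4.73. The 4 remaining tested members were called in none of the 10 fits, which are the 9 comparisons of groups and the titration.

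Ordered by mean, the 9 groups ran from Arc cells to pure cones for Rbp3, Rdh12 and Abca4. For Rbp3 the ranges of all 8 neighbouring pairs overlapped. For Rdh12 and Abca4 they overlapped in 7 of 8, and the separate pair was the lowest one, Arc cells and the next group up. Dhrs3 was lowest with 50 cones and highest in pure cones, and Rdh11 lowest with 75 cones and highest in Arc cells. For these and the 4 others all 8 neighbouring pairs overlapped.

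On the linear scale a gene made mainly by cones would lie on a straight line against cone share if both cell types gave equal amounts of RNA. Positions were therefore expressed as percent of the way from the pure starburst to the pure cone mean. Rbp3 stood at 18.6 ± 3.2% with 50 cones, a share of 25%, and at 48.3 ± 16.5% with 100 cones, a share of 50% (SD, n = 3). With 75 cones, a share of 37.5%, it stood at 10.1 ± 9.0%. It stood at 51.0 ± 25% with 150 cones, a share of 75%, at 46.7 ± 24.8% with 157, a share of 78.5%, and at 83.4 ± 22.0% with 183, a share of 91.5%. The mean was thus below the line in all 6 mixtures, most closely at 50% of cones. All 6 positions rest on the same pure cone mean, whose own arrays stood at 126, 119 and 54.1%. Rdh12 stood at 4.7 ± 8.6% with 50 cones, -5.6 ± 11% with 75 and 10.7 ± 3.4% with 100. It stood at 68.4 ± 34.3% with 150, 16.9 ± 17.2% with 157 and 95.8 ± 31.8% with 183. The means with 150 and 157 cones, of nearly equal share, lay far apart, but their arrays overlapped. The lowest array with 150 cones stood at 29.1% and the highest with 157 at 36.0%, and the difference was not tested. Abca4 stood at 3.8 ± 18.3% with 50 cones, 1.4 ± 13.9% with 75 and 29.5 ± 9.4% with 100. It stood at 36.4 ± 20.0% with 150, 69.0 ± 57.0% with 157 and 82.2 ± 37.4% with 183. Limma's test of a bend over the 5 titration groups on the linear scale called 0 of the 8 tested members, and 0.0482% of all genes, with an adjusted p of 0.938 for Rbp3, 0.820 for Rdh12 and 0.711 for Abca4. Rdh12 and Abca4 were the 2 members with an unadjusted p under 0.05.

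**Figure D3:**
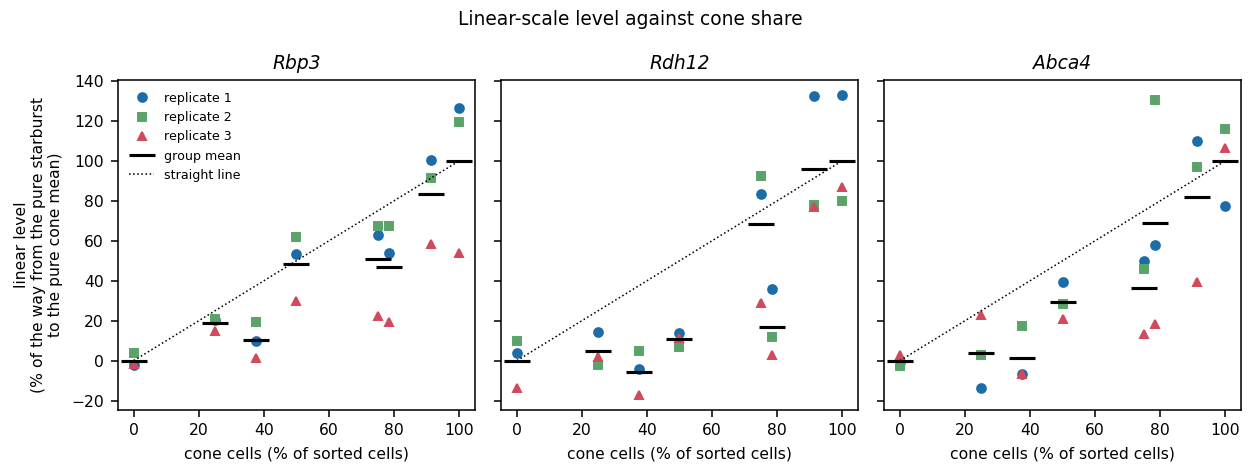
Linear-scale level of Rbp3, Rdh12 and Abca4 as percent of the way from the pure starburst to the pure cone mean, against the percentage of cones among the sorted cells. Points are arrays by replicate number, bars are group means and the dotted line joins the pure means. Rdh12 with 100 cones lies at 10.7%, below the line, and the third arrays lie lowest for Rbp3 in every mixture.

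The members differed in how they behaved on the third arrays of the 4 cone-rich groups. Rbp3 was below both other arrays in 4 of 4 groups, by -1.34 to -0.64 on the log2 scale, as were all 10 cone markers. Dhrs3 was above both in 4 of 4, by 1.24 to 2.44, as were 7 of the 11 rod markers, while the rod sum was not with 157 cones. Its third-array values were 6.70 with 150 cones, 6.62 with 157, 6.69 with 183 and 7.46 with 200, against first and second values of 5.11 and 5.14, 4.13 and 4.24, 4.99 and 4.38, and 6.22 and 6.22. Rdh12 differed by -0.91 to -0.18 and Abca4 by -0.84 to 0.09, each below both other arrays in 3 of 4 groups. The cone phosphodiesterase Pde6c differed by -3.81 to -2.01 and the rod channel Cnga1 by 1.69 to 3.09. Of the 6 measured bipolar markers, 5 lay above both other arrays with 157 and with 183 cones. With 200 cones 3 did so and with 150 cones 2, and 1 did so in all 4 groups. The third arrays were singled out from these same values, and the share of all tested genes with such patterns was not counted. The part of rod, cone or bipolar RNA in these differences was not tested.

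**Figure D4:**
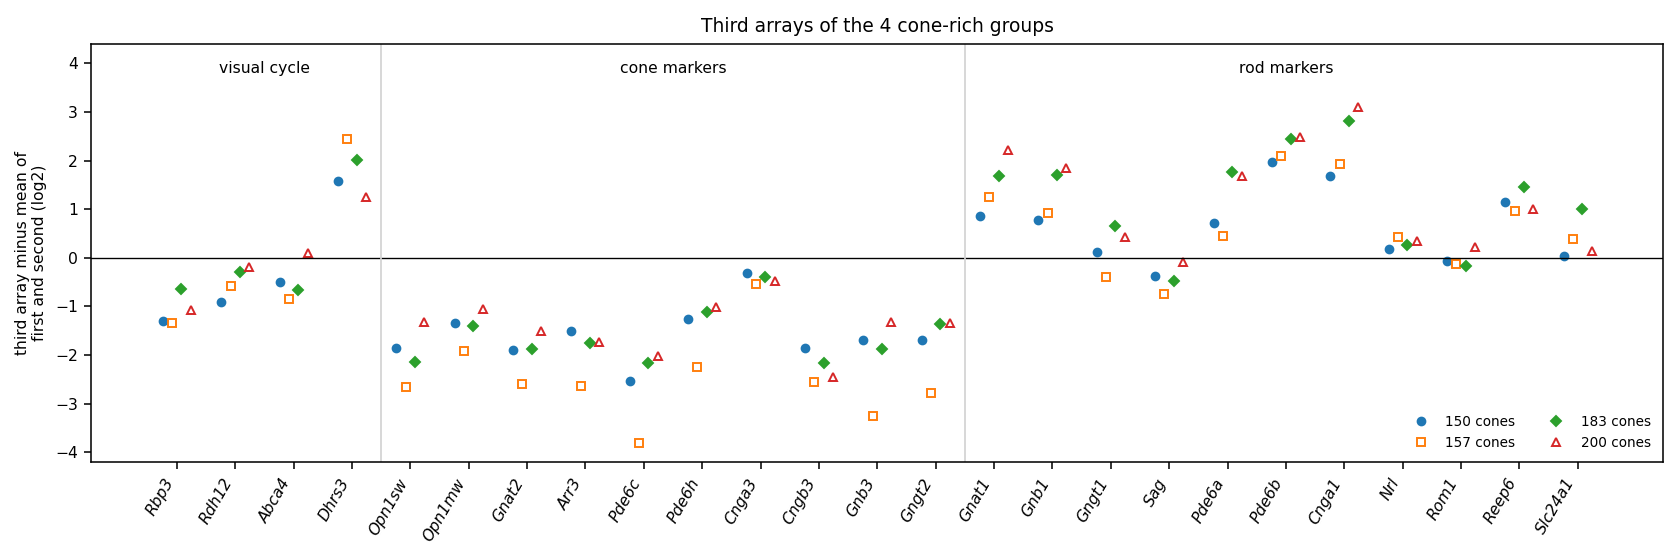
Difference on the log2 scale between the third array and the mean of the first and second, in the 4 groups with at least 150 cones, for 4 visual cycle genes, 10 cone markers and 11 rod markers. Each point is a group. Dhrs3 lies above 0 in all 4 groups, as do most but not all rod markers, and Rbp3 lies below 0 in all 4, as do all 10 cone markers.

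Other genes of retinoid metabolism were counted from a list. Of 48 listed genes, 45 were measured and 24 tested. In pure cones against pure starburst cells 1 of the 24 was called, where 8.42% of all tested genes were called. It was Rxrg, a retinoid receptor of the nucleus found in cones. It had 5.55, 5.43 and 3.60 in pure cones, against 3.25, 2.70 and 2.81 in pure starburst cells, with the third cone array much lower than the others. Its log2 fold change was 1.94 ± 0.62 (limma adjusted p = 0.0388), and its change over the titration 1.79 ± 0.44 (0.0107). The first of these calls was lost without any single array of the pure groups except the third pure cone array, with adjusted p of up to 0.145. It was also lost without the filter on dim genes (limma adjusted p = 0.0557) and with only the groups compared (0.0676). The median log2 fold change of the 24 genes was -0.11.

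The cellular retinoic acid binding protein Crabp2 was the 1 gene of the 24 called in each Arc comparison. Of all tested genes 10.3% were called against cones and 3.55% against starburst cells. Crabp2 had 5.88, 5.08 and 3.56 in Arc cells, against 2.45, 2.72 and 2.72 in pure cones and 4.25, 2.54 and 2.75 in pure starburst cells. It was higher in Arc cells by 2.21 ± 0.47 over cones (limma adjusted p = 0.00173) and by 1.66 ± 0.47 over starburst cells (0.0382), where the groups overlapped and the call was lost without 4 of the 6 arrays in turn. That call was also lost with repeated quantile normalization (0.0709), without the filter on dim genes (0.0527) and with only the groups compared (0.219). Over the titration 2 of the 24 genes were called, Rxrg and Crabp1, and 8.20% of all tested genes. Crabp1, a relative of Crabp2, had a change of -1.36 ± 0.43 (limma adjusted p = 0.0434). Its call was lost with the replicate number as a block (0.0612) and without 10 of the 15 titration arrays in turn. Repeated quantile normalization (0.165) and leaving out the filter on dim genes (0.0633) lost it too. Crabp1 had 5.16, 4.88 and 6.66 in pure cones, against 7.71, 6.85 and 5.93 in pure starburst cells. Dgat1, an acyltransferase that can make retinyl esters, was called in 1 mixture, with 183 cones, where 4.90% of all tested genes were called. It had 6.07, 5.80 and 5.60 with 183 cones, against 6.45, 7.48 and 7.62 in pure starburst cells. The log2 fold change was -1.36 ± 0.35 (limma adjusted p = 0.0164), and the call was lost without the third arrays (0.230). It was also lost without pure starburst replicate 2 (0.0785) or 3 (0.0835) and without replicate 2 (0.0552) or 3 (0.0536) of the 183-cone group. A limma fit on only the groups compared lost the call too (0.0759).

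The dehydrogenases Adh5, Dhrs7 and Rdh14 were uncalled and are named because their probe sets had the highest mean values on the arrays, which does not rank the genes by level. In pure cones against pure starburst cells they differed by 0.12 ± 0.26, -0.59 ± 0.26 and 0.13 ± 0.28 (limma adjusted p = 0.829, 0.137 and 0.817). Rlbp1, the retinal binding protein of Muller glia and pigment epithelium, was chosen after its values were seen. It ranged over 3.23 to 7.17 on the 27 arrays with a median of 4.22, and had 3.59, 3.85 and 4.14 in pure cones, against 3.65, 6.75 and 4.14 in pure starburst cells. Its difference of -0.99 ± 0.82 was not called (limma adjusted p = 0.495), and limma called 0 of 9 tested Muller glia markers there (2 at an unadjusted p under 0.05).

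Likeness of pattern was measured by Pearson's r over the 9 group means, which share arrays and the same cone shares. The genes closest to Rbp3 were Apela, Gckr, A930003A15Rik, Rtbdn and Rcvrn, with r between 0.990 and 0.997. Those closest to Rdh12 were Rom1, Plcd3, Ybx3, Otx2 and 1190005I06Rik, between 0.965 and 0.982. Those closest to Abca4 were Epb41l2, Pcare, H4c9, Ptp4a3 and Mcf2, between 0.978 and 0.991. Among the 3 members themselves r was 0.90 for Rbp3 with Abca4, 0.90 for Rbp3 with Rdh12 and 0.88 for Abca4 with Rdh12.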

How the data were processed

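The authors' deposited table gives log2 values, which the submitters' processing notes trace to RMA in the package oligo, run under R 2.11.1, and which name build mm9. RMA corrects background, brings arrays to a common distribution and sums up the probes of a set, and it compresses the folds of dim genes. Which arrays went through it together is not given in the sources used here. Array medians lay between 2.78 and 2.89. Arrays have no read depth, and 3 arrays per group limit the precision.

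The platform annotation named a single gene for 19446 of the 22347 probe sets, more than one for 735 and no gene for 2166. Genes were taken from the first kind. For genes with several probe sets the one of highest mean was used. Limma 3.58.1 in R 4.3.3 was fitted with lmFit and eBayes, with 1 mean per group over 27 arrays, or with cone share as a number over the 15 titration arrays. Tests were two-sided, with Benjamini-Hochberg adjustment over 12441 genes. The bend was a quadratic contrast on the linear scale. The steps were tested on simulated data. Members and gene lists were chosen with earlier results of these data known.

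Members were always named. Of the 48 other retinoid genes, those called between pure groups, in an Arc comparison or over the titration were named, with up to 3 uncalled ones of highest mean, and the 5 genes closest to each member called in cones. Dgat1 and Rlbp1 were added after their values were seen.

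The reported fits hold no replicate block. A block was fitted as an alternative in every comparison, because the series' design describes 3 sorting rounds for the titration groups; for the other mixtures and Arc cells shared rounds are not stated. Deviations of same-numbered arrays correlated at -0.02 to 0.10 over the 9 comparisons of groups, and 91 of 108 such correlations over all pairs of groups were positive. None of the 9 comparisons sets cone-rich groups against each other, and the third arrays of those groups shared low cone markers.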

Additional observations from a re-analysis of the deposited data

How the results depend on the processing

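Alternatives were the filter on dim genes, the choice of probe set, repeated quantile normalization, median centring, eBayes with trend and robust, array weights, the replicate block, a fit on only the groups compared or on 24 titration and other mixture arrays, adjusted p alone, leaving out replicate 3 everywhere, and each array left out in turn. Of 203 counts of called members under these, 193 stayed equal or within 1.5 times. Counts of 0 that stayed 0 are among the 193, as are changes between 3 and 4 members. In the pairing test with the replicate block, 1 member was called at 50 cones in place of 0, and 20 genes in place of 6. It changed the call of Dhrs3 in pure cones (1.95, adjusted p = 0.0440) and of no other member beyond Rbp3 at 50 cones. With only the groups compared 1 member was called at 150 cones in place of 2, with Rdh12 at an adjusted p of 0.114. With adjusted p alone, and without replicate 3, 2 members were called at 157 cones in place of 1, Abca4 being the added one. Leaving out each array in turn, the count lay between 0 and 1 for Arc against starburst cells, 1 and 2 at 150 cones, 1 and 2 at 157, 2 and 3 at 183, and 3 and 4 over the titration, and did not change in the 6 other tests. Array weights took the titration call from Dhrs3 (adjusted p = 0.0848). Over the alternatives the number of all genes called ranged over 3 to 23 at 50 cones (6 in the reported fit), 1 to 19 at 75 (6), 32 to 100 at 100 (52), 58 to 335 at 150 (217), 306 to 906 at 157 (508), 404 to 1009 at 183 (610), 810 to 1752 for pure cone against pure starburst (1048), 371 to 715 for Arc against starburst (442), 1062 to 2207 for Arc against cone (1286), 898 to 1974 over the titration (1020) and 0 to 11 for the bend (6). Of 1602 values of members under alternatives, 14 lost a call, 5 gained one and 0 called values changed sign. Only values called in the reported fit could lose a call, and most of the 1602 were not called there. Rdh8 and Lrat gave no value under the stricter filter. Members near the filter level, Abca4, Rdh8, Lrat and Rdh5, have folds that array background limits.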
